A study of Mus musculus with 6 samples.

Results

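The genes described here are those of the acinar cell, the exocrine cell of the pancreas that makes digestive enzymes: 38 genes were listed by name, and 36 of them had a probe on the array through a RefSeq accession, out of 45616 features tested. *Ctrc* and *Try10* were not matched to a probe. Acinar cells store inactive proenzymes (zymogens) in granules and release them into the duct system, and their identity is held by the transcription factors PTF1A with its partner RBPJL, NR5A2 and MIST1, the product of *Bhlha15*. Islets lie embedded in acinar tissue, so that islet preparations are known to carry exocrine cells or their RNA.

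The cells came from hand-picked islets of mouse pups at postnatal day 1 (P1). The pups are described as carrying the *Wnt4eGFPCre* knock-in allele, which expresses eGFP and Cre from the *Wnt4* locus, together with the *mTmG* reporter, in which Cre recombination turns on membrane GFP (mGFP), on a line crossed to C57BL/6J and without treatment. A supplementary legend of the paper instead labels the compared sets as *Wnt4eGFPCre* Tg+ and Tg-, each with *mTmG*, and this was not resolved here. Cells sorted as mGFP+ are called Wnt4hi and cells sorted as mGFP- are called Wnt4low, so that the label records Cre activity since its onset rather than the *Wnt4* level at P1. Each population was measured on 3 single-color arrays, replicates 2, 3 and 4 of Wnt4hi and replicates 1, 3 and 4 of Wnt4low, each from a pool of 3 or 4 pups. The labels do not say whether arrays with the same number came from the same pups. The methods name no marker of cell type for the sort, so that mGFP- cells of any type in a picked islet can be part of Wnt4low.

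On the arrays, 70.5% to 79.5% of spots were well above background, spots were at the median 10.8 to 15.6 times as bright as the median of their local backgrounds, and 0 spots were saturated. *Wnt4* itself was 10.53 to 11.20 on the log2 scale in Wnt4hi and 9.31 to 10.11 in Wnt4low, a log2 fold change of 1.08 with a standard error (SE) of 0.27, and the arrays did not overlap. The islet genes *Ins2* and *Gcg* were present on all 6 arrays, at 15.81 to 16.66 and at 12.73 to 15.91. The Wnt4hi 2 array stood apart in another way. The column of that name in the authors' table of normalized values correlated with the scanner values of Wnt4hi 2 at r = 0.271 across probes after centring each probe, against 0.843 to 0.872 for the other 5 arrays. Values below come from the scanner output, and the 5 genes that passed the unadjusted threshold are also given without Wnt4hi 2. All levels are log2 intensities after background correction and quantile normalization, and levels of different probes are not set against each other.

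No acinar gene differed between Wnt4hi and Wnt4low after adjustment for all features, and most enzyme genes were lower in Wnt4hi with wide errors. Of the 36 genes, 25 were lower and 11 higher in Wnt4hi on the log2 scale, with a median log2 fold change (Wnt4hi minus Wnt4low) of -0.50 beside 0.07 over all features. By limma at an unadjusted p under 0.05, 4 genes fell in Wnt4hi (*Nr5a2*, *Dmbt1*, *Cpa1* and *Cela3b*), against 5.53% of all features in that direction, and 1 rose (*Bhlha15*), against 5.02%. At an adjusted p under 0.05 the count was 0 of 36, beside 0.438% of all features, and the lowest adjusted p was 0.199, for *Nr5a2*. Levels did not overlap between the populations for 4 genes lower in Wnt4hi (*Nr5a2*, *Dmbt1*, *Cela3b* and *Zg16*), beside 6.44% of all features, and for 2 genes higher in Wnt4hi (*Bhlha15* and *Pnlip*), beside 9.56%; *Pnlip* was well above background on 0 arrays, so that its separation is one of background signal. Because these are bulk RNA samples, fewer cells of a type and less RNA per cell cannot be told apart.

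The acinar genes varied widely between arrays of the same population. Their median deviation from the 6-array mean was -0.35, -0.20 and -0.24 on Wnt4hi 2, 3 and 4, and it was -0.23, 0.51 and 0.48 on Wnt4low 1, 3 and 4. Wnt4low 3 and 4 were thus the high arrays, and Wnt4low 1 lay among the Wnt4hi arrays. Over all features the same medians ran from -0.06 to 0.05. The range among the Wnt4low arrays exceeded 2 on the log2 scale for 12 of the 36 genes (33.3%) and for 1.81% of all features, and that among the Wnt4hi arrays did so for 4 genes (11.1%) and for 2.95% of all features. The median SD within a population was 0.49 for the acinar genes and 0.28 for all features. These comparisons of arrays were chosen after the values were seen and carry no test.

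**Figure D1:**
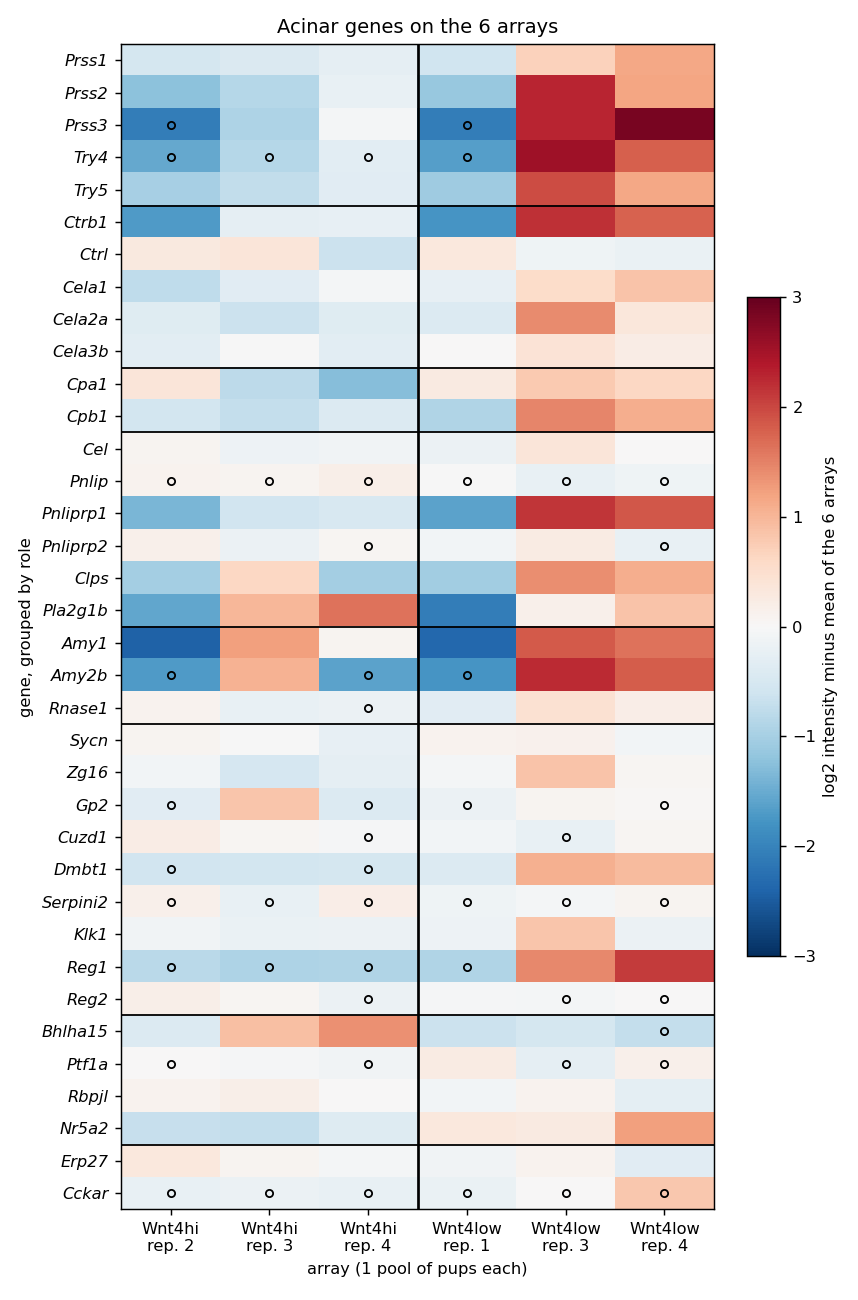
Log2 intensity of each of the 36 acinar genes (rows, grouped by role) on each of the 6 arrays (columns), minus the mean of that gene over the 6 arrays. Open circles mark arrays on which the gene was not well above background. The trypsinogens, *Ctrb1*, *Pnliprp1*, the amylases and *Reg1* are red on Wnt4low 3 and 4 and blue on Wnt4low 1, and the amylases, *Clps* and *Pla2g1b* are also red on Wnt4hi 3.

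Promoters were available from RefSeq (GRCm38.p6) for 30 of the 38 genes. PTF1 is known to bind a pair of elements, an E box (CANNTG) and a TC box (TTTCCC). Stretches of 250 bases upstream of the transcription start are shown, 5′ to 3′ on the strand of the gene, because the proenzyme genes they belong to had their highest levels on the same 2 arrays. These examples were picked from the promoters available, 3 with both elements close together and 2 of trypsinogens without a TC box. They are *Prss1* (chr6:41458680-41458929, plus strand), *Ctrb1* (chr8:111691011-111691260, minus strand), *Cela1* (chr15:100687921-100688170, minus strand), *Try4* (chr6:41302022-41302271, plus strand) and *Prss3* (chr6:41377614-41377863, minus strand). Capitals mark, on either strand, the E box, the TC box and the element of NR5A2 (AAGGTCA).
Prss1: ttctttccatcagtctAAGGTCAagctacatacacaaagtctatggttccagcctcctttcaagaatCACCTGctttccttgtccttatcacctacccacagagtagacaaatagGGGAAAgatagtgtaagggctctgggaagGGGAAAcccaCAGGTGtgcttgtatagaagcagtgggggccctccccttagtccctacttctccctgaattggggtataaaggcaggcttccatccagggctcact
Ctrb1: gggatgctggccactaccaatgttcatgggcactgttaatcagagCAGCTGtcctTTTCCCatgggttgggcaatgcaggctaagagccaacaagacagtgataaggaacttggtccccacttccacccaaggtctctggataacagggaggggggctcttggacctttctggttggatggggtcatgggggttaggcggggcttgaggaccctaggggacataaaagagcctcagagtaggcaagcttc
Cela1: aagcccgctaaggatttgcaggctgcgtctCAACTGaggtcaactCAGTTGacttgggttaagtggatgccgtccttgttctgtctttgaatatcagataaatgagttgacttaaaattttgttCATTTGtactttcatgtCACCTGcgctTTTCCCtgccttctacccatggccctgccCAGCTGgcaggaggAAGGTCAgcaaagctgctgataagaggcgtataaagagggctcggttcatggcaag
Try4: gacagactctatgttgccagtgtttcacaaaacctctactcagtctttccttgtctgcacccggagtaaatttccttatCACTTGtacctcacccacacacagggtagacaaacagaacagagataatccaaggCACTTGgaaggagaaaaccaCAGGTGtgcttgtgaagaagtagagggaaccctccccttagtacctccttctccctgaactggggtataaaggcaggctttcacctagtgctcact
Prss3: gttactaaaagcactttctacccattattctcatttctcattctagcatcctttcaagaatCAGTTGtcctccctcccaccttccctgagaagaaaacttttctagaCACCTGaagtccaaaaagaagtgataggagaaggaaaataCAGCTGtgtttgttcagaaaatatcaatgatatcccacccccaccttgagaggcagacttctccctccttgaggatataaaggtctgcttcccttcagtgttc

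In *Prss1*, *Ctrb1* and *Cela1* an E box was followed by TTTCCC with 4 bases between them, read on the minus strand of the printed sequence for *Prss1* and on the plus strand for the other two. An E box followed by TTTCCC within 25 bases was found in the 300-base promoters (250 bases before to 50 after the start) of 5 of the 30 genes (*Prss1*, *Ctrb1*, *Cela1*, *Cpa1* and *Cel*, 16.7%), and in 3.44% of all 27025 genes with a promoter. CACCTG, the E box that PTF1 prefers, was held by 60% of the acinar promoters and 22.6% of all promoters. For CAGCTG, the palindromic E box associated with MIST1, the shares were 20% and 18.3%, and for AAGGTCA they were 13.3% and 5.38%. Both strands were searched, and CACCTG and CAGCTG are also counted among the CANNTG matches, which 83.3% of acinar and 75% of all promoters held. These are matches of letters and not measured binding. *Try4* and *Prss3* held no TTTCCC in the stretches shown. Compared without gaps at the best of a range of small shifts, *Try4* was identical to *Prss1* at 139 of 250 positions, and *Prss3* at 79 of 244. Such a count passes over stretches that match at another offset, so it does not show how similar *Prss3* and *Prss1* are.

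The trypsinogens, precursors of the protease that activates the other zymogens, were lower in Wnt4hi in 5 of 5 measured genes with a median log2 fold change of -1.54, and 0 of them passed the test. The largest difference was that of *Prss3*, which was 6.15, 7.31 and 8.15 on Wnt4hi 2, 3 and 4, and 6.15, 10.50 and 11.06 on Wnt4low 1, 3 and 4. It was high on Wnt4low 3 and 4 and not well above background on Wnt4hi 2 and Wnt4low 1, and the populations overlapped. The log2 fold change was -2.04 (SE 1.34, limma adjusted p = 0.703). It was -3.58 without Wnt4low 1. The *Prss3* difference was -1.12 without Wnt4low 4 and -1.02 in the authors' table, and in these 2 settings the differences of *Try4* (-1.35 and -1.84) and *Prss2* (-1.34 and -1.55) were larger.

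*Try4*, another trypsinogen that was added after its values were seen, was 6.34, 7.02 and 7.54 on Wnt4hi 2, 3 and 4, and 6.22, 10.42 and 9.66 on Wnt4low 1, 3 and 4. It did not reach well above background on the Wnt4hi arrays and was well above it on 2 of 3 Wnt4low arrays. Its mean was at least 2.68-fold lower in Wnt4hi, a difference that did not pass (limma adjusted p = 0.670). Wnt4low 1 lay below all 3 Wnt4hi arrays. The bound sets the mean of all 3 Wnt4low arrays against, on each Wnt4hi array, the higher of the gene's own signal and the lowest signal of any probe well above background. It allows for background and not for the spread between arrays. The bound was 1.51-fold without Wnt4low 3 and 6.47-fold without Wnt4low 1. Between arrays of the Wnt4low population, *Prss2* on replicate 3 exceeded replicate 1 by 3.43 and *Try5* by 3.02 on the log2 scale, both well above background on all 6 arrays. For *Prss1*, *Prss2* and *Try5* the log2 fold changes ran from -1.54 to -0.83, with replicate 1 the lowest Wnt4low array for each. Trypsinogens are a family of similar genes in tandem, and their probes may share signal, which was not tested.

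Among chymotrypsinogens and elastases, endoproteases of the same juice, 1 of 5 measured genes fell in Wnt4hi. *Cela3b*, an elastase family protease, was 9.07, 9.36 and 9.07 on Wnt4hi 2, 3 and 4, and 9.39, 9.80 and 9.61 on Wnt4low 1, 3 and 4. The populations did not overlap, although Wnt4hi 3 and Wnt4low 1 differed by little. The log2 fold change was -0.44 (SE 0.17, limma unadjusted p = 0.0409, adjusted p = 0.440), and without Wnt4hi 2 it was -0.39 and no longer passed (unadjusted p = 0.111).

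*Ctrb1*, chymotrypsinogen B, was 9.56, 11.00 and 11.01 on Wnt4hi 2, 3 and 4, and 9.48, 13.46 and 13.03 on Wnt4low 1, 3 and 4. Wnt4hi 3 and 4 lay between the low arrays Wnt4hi 2 and Wnt4low 1 and the high arrays Wnt4low 3 and 4, and the populations overlapped (log2 fold change -1.47, SE 1.09, limma adjusted p = 0.745). It was -0.73 without Wnt4low 3, -0.95 without Wnt4low 4, -2.72 without Wnt4low 1 and -0.99 without Wnt4hi 2. *Ctrl*, a chymotrypsin-like protease, was the exception to its role. It was 11.96, 12.04 and 11.02 on Wnt4hi 2, 3 and 4, and 11.97, 11.54 and 11.46 on Wnt4low 1, 3 and 4, so that the highest Wnt4low array was replicate 1 and the difference was 0.014 (SE 0.31). *Cela1* and *Cela2a* had log2 fold changes of -0.77 and -0.91 without passing the test.

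The carboxypeptidases trim amino acids from the end of peptides. *Cpa1* fell in Wnt4hi: it was 11.33, 10.18 and 9.69 on Wnt4hi 2, 3 and 4, and 11.22, 11.75 and 11.58 on Wnt4low 1, 3 and 4. All 3 Wnt4low arrays were high, and so was Wnt4hi 2, by which the populations overlapped. The log2 fold change was -1.11 (SE 0.43, limma unadjusted p = 0.0387, adjusted p = 0.430), and it was -1.58 without Wnt4hi 2. It did not pass when any of the other 5 arrays was left out (-0.76 without Wnt4hi 4, unadjusted p = 0.105), nor with the processed signal of the scanner software (unadjusted p = 0.0508). In the authors' table, where the Wnt4hi 2 column gives 10.14 for *Cpa1*, the log2 fold change was -1.53 with a limma adjusted p of 0.0299. *Cpb1* had a log2 fold change of -1.10 with levels of 8.13, 10.50 and 10.11 on Wnt4low 1, 3 and 4, so that *Cpa1* stayed high on Wnt4low 1 where *Cpb1* did not. The *Cpb1* difference ran from -1.83 to -0.64 when 1 array was left out.

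**Figure D2:**
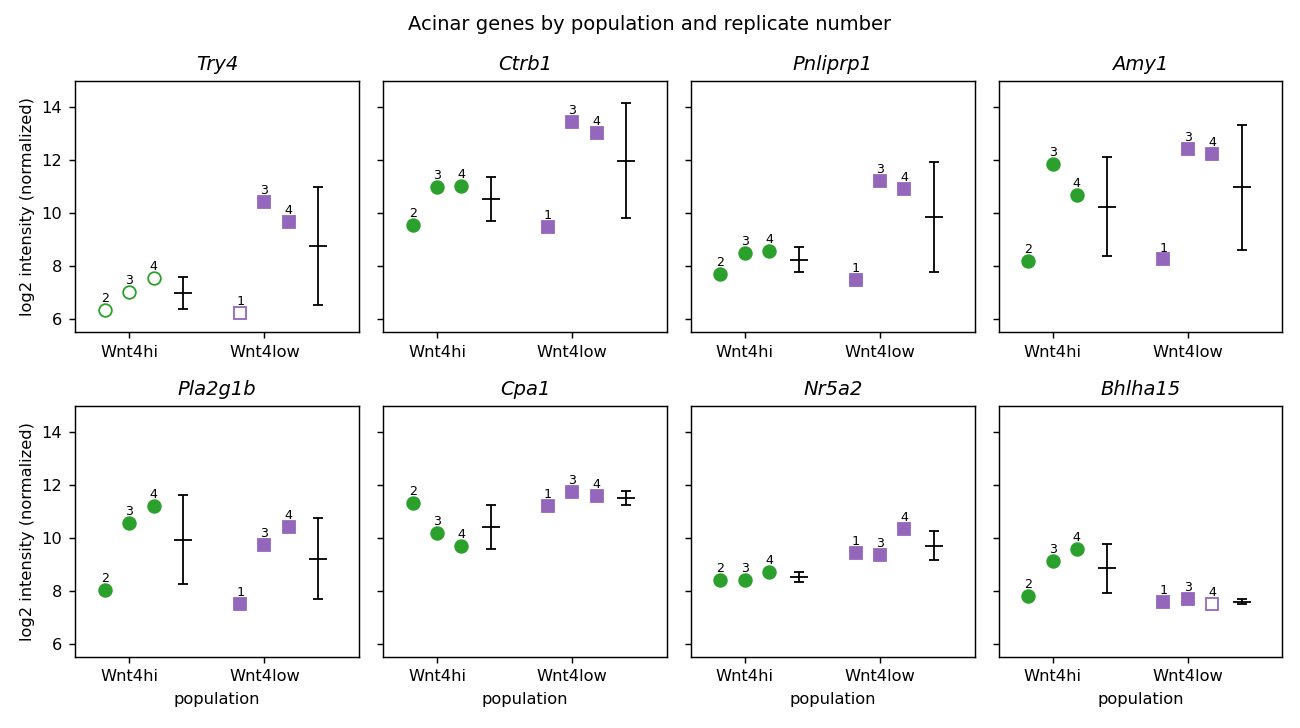
Log2 intensity of 8 acinar genes on the 3 Wnt4hi arrays (circles) and the 3 Wnt4low arrays (squares), with the replicate number above each point, open symbols where the gene was not well above background, and the mean ± SD of each population to its right. *Try4*, *Ctrb1* and *Pnliprp1* are high on Wnt4low 3 and 4 alone, *Amy1* and *Pla2g1b* are low on Wnt4hi 2 and Wnt4low 1, and *Nr5a2* and *Bhlha15* separate the populations.

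Genes of lipid digestion went both ways, 3 lower and 3 higher in Wnt4hi, with a median of -0.05 and 0 of 6 passing. *Pnliprp1*, a pancreatic lipase related protein, was 7.69, 8.48 and 8.57 on Wnt4hi 2, 3 and 4, and 7.46, 11.20 and 10.93 on Wnt4low 1, 3 and 4. Its high arrays were again Wnt4low 3 and 4, and the populations overlapped through Wnt4low 1 (log2 fold change -1.62, SE 1.00, limma adjusted p = 0.682). It was -0.95 without Wnt4low 3, -1.09 without Wnt4low 4 and -2.82 without Wnt4low 1. *Clps*, the lipase cofactor colipase, and *Pla2g1b*, the secreted phospholipase of the pancreas, were added after their values were seen.

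*Clps* was 10.56, 12.20 and 10.58 on Wnt4hi 2, 3 and 4, and 10.56, 12.98 and 12.67 on Wnt4low 1, 3 and 4. *Pla2g1b* was 8.02, 10.58 and 11.19 on Wnt4hi 2, 3 and 4, and 7.50, 9.72 and 10.43 on Wnt4low 1, 3 and 4. Thus *Clps* was high on Wnt4hi 3 but not on Wnt4hi 4, while *Pla2g1b* was highest on Wnt4hi 4, and both were low on Wnt4hi 2 and Wnt4low 1. Neither difference passed (log2 fold changes -0.95, SE 0.76, and 0.71, SE 1.06), and without Wnt4hi 2 they were -0.67 and 1.67. The *Clps* difference was -0.50 without Wnt4low 3 and -1.71 without Wnt4low 1. *Cel*, bile salt dependent lipase, and *Pnliprp2* differed by -0.12 and 0.024, and *Pnlip*, pancreatic lipase, did not reach well above background on the 6 arrays.

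The amylases, which cleave starch, varied widely between arrays. *Amy2b* was 6.66, 9.40 and 6.74 on Wnt4hi 2, 3 and 4, and 6.58, 10.60 and 10.17 on Wnt4low 1, 3 and 4, and it was not well above background on Wnt4hi 2, Wnt4hi 4 or Wnt4low 1. *Amy1*, added after its values were seen, was 8.19, 11.85 and 10.70 on Wnt4hi 2, 3 and 4, and 8.25, 12.45 and 12.23 on Wnt4low 1, 3 and 4. Wnt4hi 3 was 1.20 below Wnt4low 3 for *Amy2b* and 0.60 below it for *Amy1*, and within Wnt4hi replicate 3 exceeded replicate 2 by 3.66 for *Amy1*. The log2 fold changes were -1.51 (SE 1.26) and -0.73 (SE 1.41), neither of which passed, and a further *Amy1* probe gave -0.81. When 1 array was left out, *Amy2b* ran from -2.78 (without Wnt4low 1) to -0.77 (without Wnt4low 3). The *Amy1* difference was 0.30 without Wnt4hi 2, 0.0071 without Wnt4low 3 and -2.09 without Wnt4low 1. *Rnase1*, a secreted ribonuclease, differed by -0.21.

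Of 9 genes of the zymogen granule and of secreted proteins, 1 fell in Wnt4hi, and the median was -0.11. *Dmbt1*, a secreted scavenger receptor protein, was 7.26, 7.28 and 7.31 on Wnt4hi 2, 3 and 4, and 7.42, 8.90 and 8.79 on Wnt4low 1, 3 and 4. The populations did not overlap, but Wnt4low 1 lay close to the Wnt4hi arrays, 2 of which were not well above background. The log2 fold change was -1.08 (SE 0.40, limma unadjusted p = 0.0339, adjusted p = 0.410), and -1.07 without Wnt4hi 2, which no longer passed (unadjusted p = 0.0707). *Reg1*, a regenerating islet-derived C-type lectin of acinar cells, was 7.05, 6.94 and 6.98 on Wnt4hi 2, 3 and 4, and 6.98, 9.30 and 9.97 on Wnt4low 1, 3 and 4.

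*Reg1* did not reach well above background on the Wnt4hi arrays or on Wnt4low 1. Its mean was at least 2.67-fold lower in Wnt4hi by the bound described for *Try4*, which leaves out the spread between arrays (limma adjusted p = 0.486). That bound was 1.75-fold without Wnt4low 4 and 4.94-fold without Wnt4low 1. The genes that ran against most of their role were *Gp2*, the main membrane glycoprotein of the zymogen granule, *Cuzd1*, *Reg2* and *Serpini2*, with log2 fold changes of 0.045, 0.16, 0.046 and 0.085. *Gp2* had a high array in Wnt4hi 3 (8.32, against 7.08 to 7.58 on the other 5). *Cuzd1* and *Reg2* were between 7.29 and 7.81 on all 6 arrays, and *Serpini2* did not reach well above background. *Sycn* (syncollin) and *Klk1* (tissue kallikrein) differed by -0.11 and -0.34, and *Zg16*, a zymogen granule lectin, by -0.57.

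Of the 4 transcription factors of acinar identity, 1 fell, 1 rose and 2 did not pass. *Nr5a2*, a nuclear receptor that works with PTF1 on acinar genes and is also expressed outside acinar cells, was 8.41, 8.39 and 8.72 on Wnt4hi 2, 3 and 4, and 9.41, 9.37 and 10.33 on Wnt4low 1, 3 and 4. The populations did not overlap, and Wnt4low 1 was as high as Wnt4low 3. *Nr5a2* was 2.29-fold lower in Wnt4hi (log2 fold change -1.20, SE 0.29, limma unadjusted p = 0.00598, adjusted p = 0.199), and under each of 18 alternatives its unadjusted p was below the threshold, with log2 fold changes from -1.36 to -0.88 (-1.15 without Wnt4hi 2).

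*Bhlha15*, which encodes the granule and secretory scaling factor MIST1, ran the opposite way. It was 7.81, 9.13 and 9.59 on Wnt4hi 2, 3 and 4, and 7.57, 7.69 and 7.50 on Wnt4low 1, 3 and 4. The populations did not overlap, Wnt4hi 3 and 4 were high, and Wnt4hi 2 lay near the Wnt4low arrays. The log2 fold change was 1.26 (SE 0.45, limma unadjusted p = 0.0298, adjusted p = 0.389), and it was 1.77 without Wnt4hi 2. It did not pass when any of the other 5 arrays was left out (0.88 without Wnt4hi 4, unadjusted p = 0.0792). *Ptf1a* was not well above background on 4 of the 6 arrays and was 7.24 to 7.36 in Wnt4hi and 7.08 to 7.59 in Wnt4low. *Rbpjl* was well above background on every array, at 10.03 to 10.18 in Wnt4hi and 9.72 to 10.12 in Wnt4low. Neither difference passed (log2 fold changes -0.08, SE 0.17, and 0.19, SE 0.15). *Erp27*, an endoplasmic reticulum protein of acinar cells, differed by 0.23, and *Cckar*, the cholecystokinin receptor, by -0.42 without reaching well above background on an array.

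Array by array, Wnt4low 3 and 4 were each above all 3 Wnt4hi arrays for 21 of the 36 genes (58.3%), beside 9.53% of all features. Wnt4low 1 was above all 3 Wnt4hi arrays for 6 genes (16.7%), beside 24.8% of all features. Wnt4low 1 was within 0.5 of Wnt4hi 2 on the log2 scale for 33 genes (91.7%), beside 69.4%. With the Wnt4hi 2 column of the authors' table the count was 29 of 34 genes (85.3%), beside 76.9%, and *Ctrb1*, *Pnliprp1*, *Cpa1*, *Nr5a2* and *Bhlha15* were further apart. Wnt4low 1 was below both other Wnt4low arrays by more than 1 for 14 genes (38.9%), beside 2.18%. Of the 33 genes well above background on at least 1 array, 19 were highest on Wnt4low 3, which was the highest array for 9.48% of such features, and 5 were highest on Wnt4low 4 (15.3% of such features). The remaining 9 were highest on a Wnt4hi array in 8 cases and on Wnt4low 1 in 1. For 31 of the 36 genes the range among the Wnt4low arrays exceeded the difference between the populations, as it did for 79.9% of all features.

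The count of genes lower in Wnt4hi moved with single arrays. It was 1 or 2 when any array but Wnt4low 1 was left out, beside 4.65% to 5.72% of all features. Wnt4low 1 was singled out after its low levels of these genes were seen. A larger count without it follows from that choice and carries no support. Without that array 16 of the 36 genes fell in Wnt4hi at the unadjusted threshold, beside 5.43% of all features, and after adjustment 0 of the 36, and 0 of all features, passed by limma. They included all 5 trypsinogens, *Ctrb1*, 3 elastases, *Cpb1*, *Pnliprp1*, *Clps*, *Amy2b*, *Dmbt1*, *Reg1* and *Nr5a2*. Among the genes well above background on all 6 arrays, the largest log2 fold changes were then -2.82 for *Pnliprp1* (SE 0.32, limma adjusted p = 0.0828) and -2.72 for *Ctrb1* (SE 0.51, limma adjusted p = 0.177). *Amy1* (-2.09) and *Cpa1* (-1.26) did not pass, and *Pla2g1b* went from 0.71 to -0.15. *Bhlha15* had almost the same difference (1.25) and did not pass (unadjusted p = 0.0687). Without Wnt4low 3 or without Wnt4low 4, *Nr5a2* was the 1 gene of the 36 that passed, beside 5.72% and 4.97% of all features lower in Wnt4hi.

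**Figure D3:**
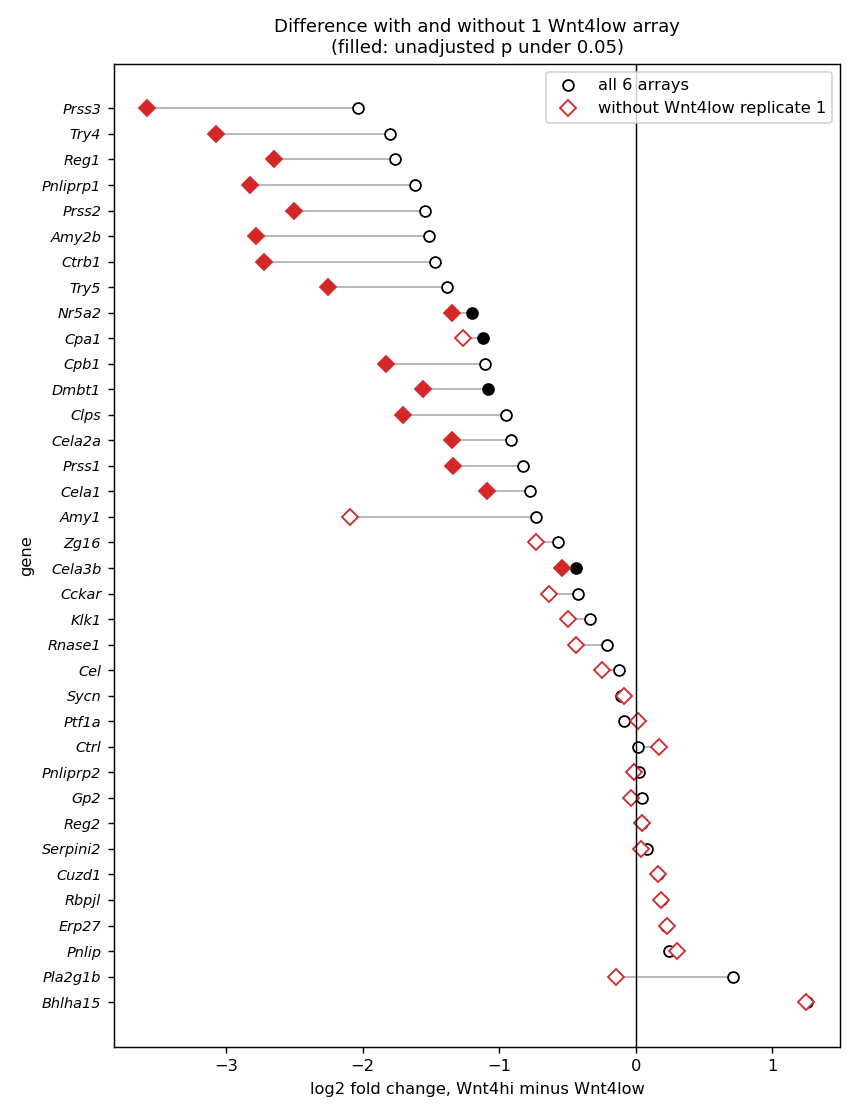
Log2 fold change (Wnt4hi minus Wnt4low) of each of the 36 acinar genes with all 6 arrays (black circles) and without Wnt4low replicate 1 (red diamonds). Filled symbols mark an unadjusted p under 0.05 by limma, and values of genes that were not well above background on some arrays are inexact. With all arrays 5 genes are filled, and without Wnt4low 1 there are 16, while the genes from *Cel* to *Pnlip* stay near 0 in both.

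Other genes of the acinar cell, from a list of 42 of which 38 were measured, were divided. In Wnt4hi, 16 were lower and 22 higher, with a median log2 fold change of 0.05. At the unadjusted threshold 2 were lower and 2 higher, shares near the 5.53% and 5.02% of all features. The lower ones were *Sctr*, the secretin receptor, which is also a duct gene (-0.92), and *Tcf12*, an E protein partner of bHLH factors (-0.73). The higher ones were *Rab3d*, a GTPase of secretory granules (1.05), and *Aqp12*, an acinar aquaporin whose signal was well above background on 0 arrays, so that its call rests on background signal. The enzyme genes on this list had the array pattern of the members without passing. *Cela3a* was 7.18, 7.01 and 6.81 on Wnt4hi 2, 3 and 4, and 6.96, 9.57 and 9.20 on Wnt4low 1, 3 and 4. *Amy2a5*, pancreatic amylase, was 7.36, 11.94 and 10.33 on Wnt4hi 2, 3 and 4, and 7.09, 13.23 and 12.66 on Wnt4low 1, 3 and 4. *Spink1*, the trypsin inhibitor of the granule, had a log2 fold change of -1.17. The trypsinogen-like genes *Gm5771* and *1810009J06Rik* had values of -1.42 and -1.91, which are inexact because each was well above background on 1 of 3 Wnt4hi and 2 of 3 Wnt4low arrays.

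Markers of other cell types also differed between the arrays. All 8 endothelial markers were lower in Wnt4hi after adjustment, with a log2 of their summed level of 11.20 to 11.64 in Wnt4hi and 14.76 to 15.70 in Wnt4low. Wnt4low 1 had the highest endothelial sum while its acinar levels were low. The 6 mesenchymal markers were lower in 6 of 6 (4 passed unadjusted), with sums of 14.89 to 15.82 in Wnt4hi and 16.12 to 16.31 in Wnt4low. The calls that follow are unadjusted, beside 5.53% of all features lower and 5.02% higher, and after adjustment 1 of these markers passed, *Ghrl*. Of 7 duct markers 2 fell (*Spp1* and *Car2*), with sums of 13.17 to 13.50 and of 13.10 to 14.05. Of 9 β-cell markers 6 rose in Wnt4hi, with sums of 18.31 to 18.35 and of 17.54 to 18.15, and of 4 α-cell markers 2 rose, with sums of 15.39 to 16.17 and of 12.87 to 15.36. Wnt4low 1 was the lowest array for both of these lists. Of 4 δ-cell and other endocrine markers 2 rose (*Ghrl*, limma adjusted p = 0.0498, and *Ppy*) and 2 fell (*Hhex* and *Sst*). Of 5 leukocyte markers 3 fell, with sums of 12.64 to 12.91 in Wnt4hi and 13.14 to 13.22 in Wnt4low. Of 4 erythroid markers 2 fell, with sums of 10.88 to 12.13 and of 11.78 to 13.35, highest on Wnt4low 3. Every endothelial marker but *Tek* was well above background on at least 1 Wnt4hi array. The sum over the 36 acinar genes was 14.50, 14.95 and 14.60 on Wnt4hi 2, 3 and 4, and 14.44, 15.96 and 15.67 on Wnt4low 1, 3 and 4. The part of these cell types in the acinar values was not tested.

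**Figure D4:**
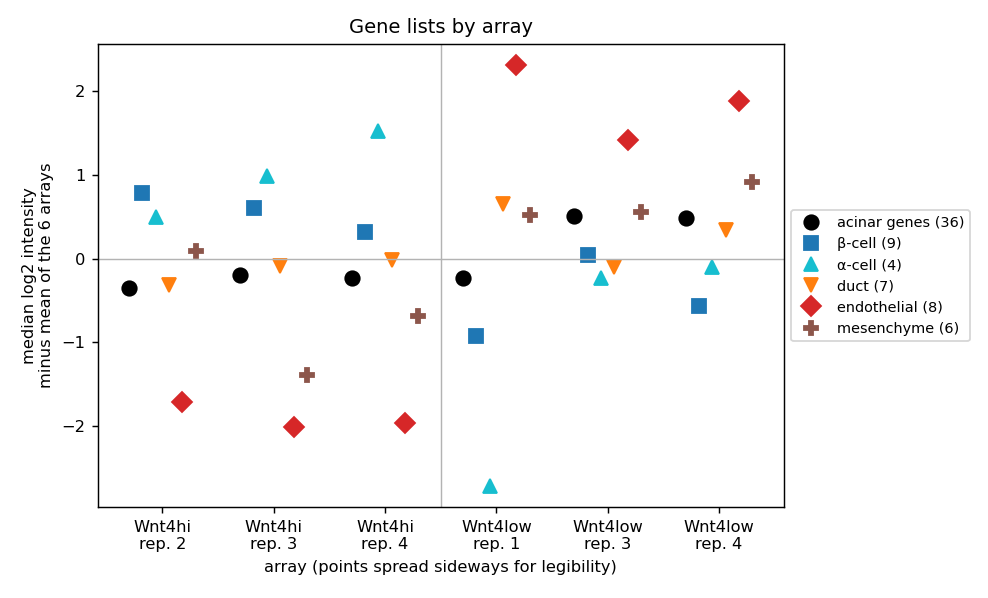
Median over each gene list of the log2 intensity minus the 6-array mean, by array, for the 36 acinar genes (black) and the markers of 5 other cell types (number of genes in brackets). The acinar median is 0.51 and 0.48 on Wnt4low 3 and 4 and below 0 on the other 4 arrays, whereas the endothelial median is above 0 on all 3 Wnt4low arrays and the α-cell median is lowest, at -2.72, on Wnt4low 1.

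Genes with a profile like the acinar median were sought outside both acinar lists, so that no gene of those lists could be ranked. The search covered 1134 named genes with an SD of at least 1 over the 6 arrays and signal well above background on at least 1. The closest were *Prelp* (r = 0.978) and *Gpc6* (r = 0.976), followed by *Stac* (0.942), *Rgs5* (0.929), *Vgll3*, *Zbtb34*, *Hoxd9*, *Insyn2a*, *Spry1* and *Kcne1l* (0.894 to 0.916). These correlations over 6 arrays are descriptions, and the arrays share their populations. *Prelp*, an extracellular matrix proteoglycan, was 7.59, 7.99 and 7.66 on Wnt4hi 2, 3 and 4, and 8.10, 10.11 and 9.49 on Wnt4low 1, 3 and 4. Like the enzymes it was highest on Wnt4low 3 and 4, and unlike most of them it was higher on Wnt4low 1 than on any Wnt4hi array.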

How the data were processed

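FACS-sorted Wnt4hi (mGFP+) and Wnt4low (mGFP-) islet cells of P1 *Wnt4eGFPCre; mTmG* pups were compared on 3 arrays each, all on 1 slide and in 1 scan. The authors deposited, per array, the scanner output with the red-channel (Cy5) intensity and local background of each spot, not normalized. The submitters' processing notes name Agilent Feature Extraction 9.1, and the file headers give 12.0.1.1. RNA had been amplified before labelling. Their table of normalized log2 values, deposited as well, was used as an alternative because its Wnt4hi 2 column did not follow that array, and its background correction and averaging of probes can differ from those used here. The software's flags for spots above background, saturated or outlying were read as deposited.

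Median spot and background intensities were corrected with normexp (offset 50), log2 values of 59305 non-control spots were quantile normalized, outlier and non-uniform spots (50 to 141 and 0 to 3 per array) were left out, and spots were averaged to 56605 probes. The probe with the highest mean stood for a gene. RefSeq accessions named 35886 probes, of which 32994 were found in GRCm38.p6, used for names only. Wnt4hi minus Wnt4low was fitted with lmFit and eBayes (limma 3.58.1, R 4.3.3) over 45616 features with Benjamini-Hochberg adjustment. Every p, adjusted or not, comes from this fit. With 3 arrays against 3, an exact permutation p is at least 0.1, and none was computed. Precision is limited by how few arrays there are.

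The acinar genes and all lists were chosen with earlier results of these data known. Genes given array by array were those at an unadjusted p under 0.05, the largest difference of each role, and those against most of their role; others are named as added after their values were seen. The code was tested on simulated data. *Ctrc* and *Try10*, and promoters of 8 genes, were not analysed here.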

Additional observations from a re-analysis of the deposited data

How the results depend on the processing

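The median log2 fold change of the acinar genes was below 0 under all 18 alternatives, from -0.31 (without Wnt4low 3) to -0.75 (with a filter on dim probes). The count of genes lower in Wnt4hi at the unadjusted threshold, 4 with all arrays, was 6 in the authors' table and ran from 1 to 16 when 1 array was left out. It was 1 without Wnt4hi 4, Wnt4low 3 or Wnt4low 4, 2 without Wnt4hi 2 or Wnt4hi 3, and 16 without Wnt4low 1. Beside these, 6.92% of all features were lower in the authors' table and 4.65% to 5.72% when 1 array was left out. The count of genes higher in Wnt4hi was 2 with the scanner software's processed signal and ran from 0 to 1 when 1 array was left out. After adjustment 1 gene (*Cpa1*) passed in the authors' table, and 0 under the other 17 alternatives. With the replicate number as a block, 17 genes were lower and 2 higher, beside 6.11% and 4.51% of all features; this fit rests on replicates 3 and 4, since numbers 1 and 2 occur in 1 population each, and so it leaves out the contrast between Wnt4low 1 and Wnt4hi 2. Deviations of same-numbered arrays correlated at -0.03 (replicate 3) and 0.16 (replicate 4). They are taken from means that include Wnt4hi 2 and Wnt4low 1, so they cannot settle whether same-numbered arrays are pairs. Same-numbered arrays came from pools of equal size, 4 pups for replicate 3 and 3 for replicate 4. Pairing was treated as not given. A random block (correlation 0.102) gave 6 lower and 1 higher, beside 5.85% and 5.38%.

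Several genes changed sign, among them *Amy1* (-0.73 with all arrays, 0.30 without Wnt4hi 2) and *Pla2g1b* (0.71, and -0.15 without Wnt4low 1). *Ctrl* was -0.024 with median centring and -0.0063 with cyclic loess, and ran from -0.17 to 0.34 when 1 array was left out. *Gp2* then ran from -0.36 to 0.26. *Serpini2* was -0.012 in the authors' table and -0.013 with the replicate block, and *Reg2* was -0.048 and -0.035 there, and from -0.034 to 0.14 when 1 array was left out. Of the genes that passed, *Bhlha15* and *Dmbt1* passed in 13 of 18 alternatives, *Cpa1* in 12 and *Cela3b* in 6. The cause of these changes was not tested. Signal of 10.8 to 15.6 times background, and 3 genes that were well above background on 0 arrays, limit what low values can show.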
